A study of Mus musculus with 12 samples.

Results

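The replication-dependent histone genes were taken as all rows of the expression table whose symbol starts with Hist1h to Hist4h followed by a histone number, and which had a value above 0 in at least 1 of 12 libraries. This gave 36 of the 21829 genes with any value, and of the 39032 genes listed, with 5 genes of the linker histone H1, 7 of H2A, 10 of H2B, 2 of H3 and 12 of H4. Another 4 histone rows (Hist1h2aa, Hist1h2bp, Hist1h4n and Hist2h3b) were listed at 0 in every library and stay outside. Just inside this limit lay Hist3h2ba, with a highest value of 0.12, and Hist1h1t, with 0.18. Levels are in FPKM, mapped fragments scaled to transcript length and library size, as the authors deposited them. The values that chose the genes are the same that are described here, so levels are given as a description.

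The libraries came from MC3T3-E1 subclone 14, a clonal wild-type mouse pre-osteoblast line that lays down mineralized matrix in osteogenic medium. All cells were kept in that medium, with ascorbic acid phosphate and β-glycerophosphate, and were harvested on day 5. There were 4 arms of 3 independent biological replicates: vehicle (Control), recombinant RSPO2 at 200 ng/ml, recombinant BMP2 at 100 ng/ml, and both proteins at these doses (BMP2+RSPO2). The study asks what BMP2, a bone morphogenetic protein, and RSPO2, a secreted enhancer of Wnt signalling, change alone and together during osteoblast differentiation.

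Histone genes of this kind supply the proteins that wrap newly made DNA, so their mRNAs build up in S phase and are degraded when replication stops. They lie in clusters, have no introns, and are transcribed in nuclear bodies organised by the factor NPAT. Their mRNAs as a rule carry no poly(A) tail: the 3' end is a short stem-loop, bound by the protein SLBP, and the cut behind it is made with the U7 small nuclear ribonucleoprotein. Some members can also be read through to a downstream poly(A) signal, above all in cells that leave the cell cycle. Libraries prepared with oligo(dT) beads, as these were, select RNA with a poly(A) tail.

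The stem-loop is shown for genes on which the results below turn. For each gene, the transcript model of the same symbol in GENCODE M21 (GRCm38) was searched after its stop codon for a stem that reads GGNNNT, a loop of TNTN and 6 bases complementary to the stem, on the transcript strand. Capitals mark the 16 bases of the stem-loop, lower case up to 5 bases on either side, and T stands for U.
Hist1h1c: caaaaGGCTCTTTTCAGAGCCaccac
Hist3h2a: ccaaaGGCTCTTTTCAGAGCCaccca
Hist1h2bm: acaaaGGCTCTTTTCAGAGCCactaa
Hist1h3d: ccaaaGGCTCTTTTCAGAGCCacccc
Hist1h4d: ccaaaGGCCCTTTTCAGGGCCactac
Hist1h4b: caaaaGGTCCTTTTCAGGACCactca
Hist1h4i: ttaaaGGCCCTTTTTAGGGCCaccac
These stretches lie behind the coding sequence, for Hist1h1c at chr13:23739507-23739532 (plus strand), for Hist3h2a at chr11:58955167-58955192 (plus strand), for Hist1h2bm at chr13:21722501-21722526 (plus strand) and for Hist1h3d at chr13:23576239-23576264 (plus strand). Those of the H4 genes lie at chr13:23581945-23581970 (plus strand) for Hist1h4d, chr13:23757361-23757386 (plus strand) for Hist1h4b and chr13:22040961-22040986 (minus strand) for Hist1h4i. All 36 genes matched a model, and 27 held the stem-loop. Anywhere in the model, it occurred in 68 of 21291 protein-coding genes, or 0.319%, of which 46 had a symbol of this kind. The stem-loop came in 7 versions. The H1, H2A, H2B and H3 genes shared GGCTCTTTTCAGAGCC in 12 cases, a version that no H4 gene had, whereas 6 H4 genes carried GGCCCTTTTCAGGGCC. Of the 9 genes without a match, 7 have a model that ends with the coding sequence and so could not show it, and the others are Hist1h1a and Hist2h2be. The model of Hist2h2be runs for 2192 bases past the stop codon and has AATAAA, the usual poly(A) signal, in its last 50 bases.

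The region before the gene is shown for 3 members, 1 each of the H1, H2B and H4 genes, to display elements known from histone promoters. RefSeq windows (GRCm38.p6) of 250 bases before to 50 after the annotated start were found for 33 of the 36 genes, and the 250 bases before the start are printed for Hist1h1c (chr13:23738557-23738806), Hist1h2bm (chr13:21721794-21722043) and Hist1h4d (chr13:23581318-23581567), all on the plus strand. Capitals mark matches on either strand to any of 5 motifs. One is CCAAT, a binding site of general activators, and another is the TATA box, searched as TATAAA. The others are known from single histone types: the octamer ATTTGCAT from H2B genes, the H1 box, searched as AAACACA, and the core of an H4 promoter element, searched as GGTCC. Matches to TATAAA and AAACACA can overlap at their ends, as can those to GGTCC and CCAAT.
Hist1h1c: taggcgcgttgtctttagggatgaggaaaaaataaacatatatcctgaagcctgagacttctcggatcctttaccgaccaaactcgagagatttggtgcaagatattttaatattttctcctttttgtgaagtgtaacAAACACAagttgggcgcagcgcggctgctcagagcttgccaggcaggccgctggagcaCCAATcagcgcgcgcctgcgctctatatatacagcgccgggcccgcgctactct
Hist1h2bm: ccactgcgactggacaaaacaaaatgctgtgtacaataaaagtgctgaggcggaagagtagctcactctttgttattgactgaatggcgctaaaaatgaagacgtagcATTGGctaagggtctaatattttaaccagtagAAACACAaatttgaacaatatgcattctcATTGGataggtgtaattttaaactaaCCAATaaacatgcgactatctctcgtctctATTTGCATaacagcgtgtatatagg
Hist1h4d: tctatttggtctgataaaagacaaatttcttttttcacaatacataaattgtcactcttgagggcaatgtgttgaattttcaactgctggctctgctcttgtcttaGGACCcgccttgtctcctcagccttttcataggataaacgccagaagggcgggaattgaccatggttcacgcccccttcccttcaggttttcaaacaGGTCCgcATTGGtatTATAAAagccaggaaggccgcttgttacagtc
CCAAT was found in the windows of 25 of the 33 genes, against 37.4% of all 32851 windows of this length: in every H1, H2A, H2B and H3 gene with a window, and in 3 of 11 H4 genes. The octamer was found in 9 genes, 5 of 7 H2A and 4 of 9 H2B genes, against 1.74% of all windows. GGTCC was found in 10 of 11 H4 genes, among 14 of the 33 in all, against 45.5% of all windows. AAACACA was found in 4 of 5 H1 genes, among 7 in all, against 7.18%, and TATAAA in 20 genes, against 13.6%. No measurement of binding at these sites was made.

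Several of these genes are near copies of each other. Among the 12 H4 genes, whose coding sequences all have 312 bases, any pair was 85.3% to 98.4% identical there. Of all windows of 50 bases in a gene's model, a median of 75.3% occurred in no other of 70 histone models; all windows were unique in 6 of the 36 genes, and in 7 genes, with Hist1h4m lowest at 10.2%, under 50% of them were. The value of a single gene, in particular of an H4 gene, is therefore uncertain to the extent that reads were split among copies.

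In 11 of the 12 libraries the histone genes were low, and in replicate 1 of BMP2+RSPO2 they were not. The median over the 36 genes was 2.005, 0.34 and 0.415 FPKM in the Control libraries, 1.64, 0.535 and 1.4 under RSPO2, 1.71, 0.505 and 0.61 under BMP2 and 35.1, 0.455 and 0.355 under the combination, in the order of replicates 1, 2 and 3. Replicate 1 of BMP2+RSPO2 thus stood 17.5-fold above the next library, Control replicate 1. The histone genes made up 0.345% of all FPKM there and between 0.0104% and 0.0324% in the others. Their number at 1 FPKM or more was 31 of 36 there, against 9 to 23, and 3 genes were listed at 0, against 5 to 11. The highest member was Hist1h4d there, at 254 FPKM, and Hist1h1c in each of the other 11 libraries.

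**Figure D1:**
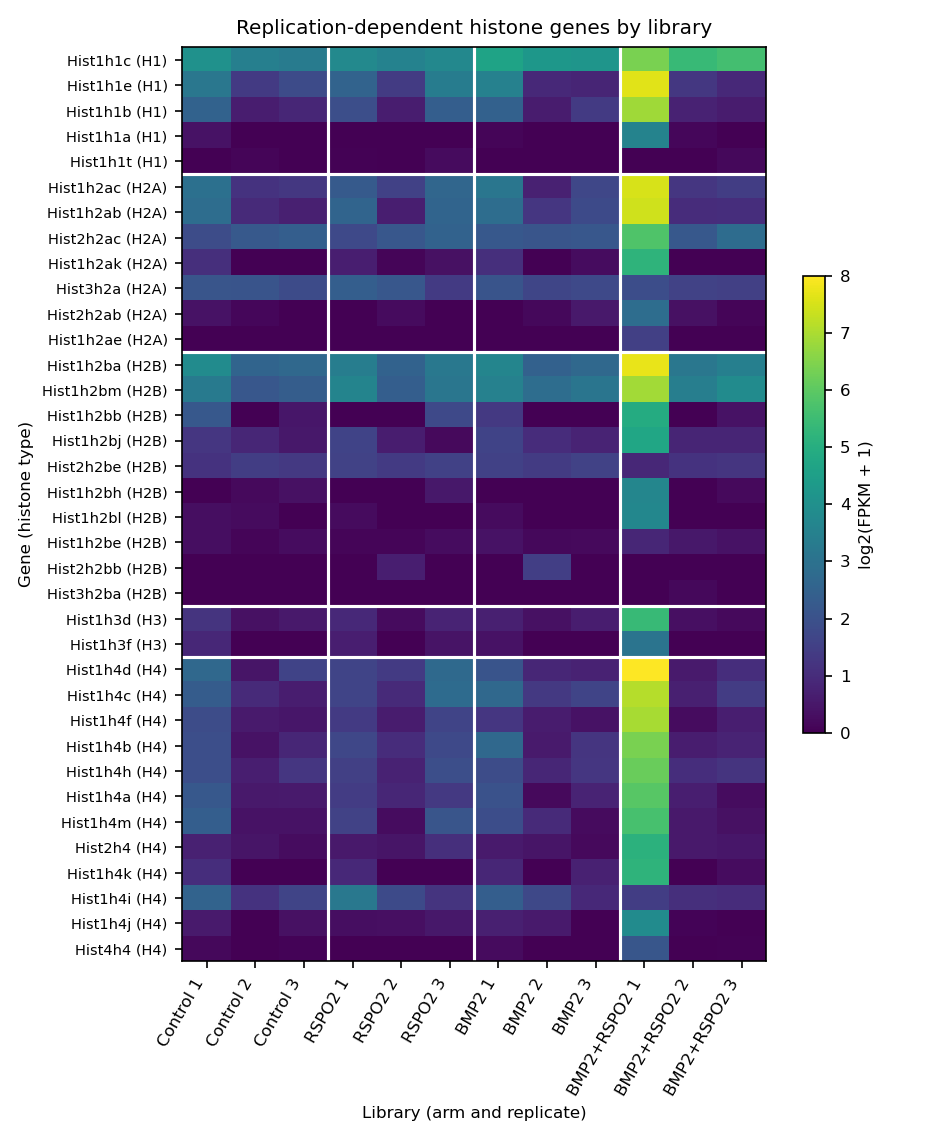
Level of each of the 36 replication-dependent histone genes (rows, grouped by histone type and ordered by mean level) in each of the 12 libraries (columns, by arm and replicate), as log2(FPKM + 1) in colour. The column of BMP2+RSPO2 replicate 1 is the brightest for 30 of 36 genes, and Hist1h1c is visible in all columns. The first replicates of Control, RSPO2 and BMP2 and the third of RSPO2 are brighter than the remaining ones.

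Replicate 1 of BMP2+RSPO2 also stood apart in the whole table. Calls of histone genes between arms and replicate numbers are therefore given with and without it, as are the medians that it enters. The FPKM values of this library summed to 635139, against 322074 to 380507. The 12 genes in the table from a list of short RNAs without a poly(A) tail, mostly made by RNA polymerase III, took 19.1% of its sum, against 0.180% to 2.30% in the other libraries, where RSPO2 replicate 3 was highest. Rn7s1, an RNA of the signal recognition particle, was listed at 78609 FPKM there and at 245 to 3262 elsewhere, and Rn7sk, Rmrp and Rpph1 were 144, 140 and 148 times their mean in replicates 2 and 3. Genes above 1 FPKM in all libraries (9356) had a median ratio of 0.904 between the same libraries. The osteoblast markers (6 of 6 present) summed to between 4271 and 16283 FPKM, while those of chondrocytes summed to between 3.54 and 43.2, with the highest value in BMP2 replicate 2. The sums stayed at or below 4 for haematopoietic, 5.35 for endothelial, 0.35 for adipocyte, 0.05 for skeletal muscle and 0.30 for epithelial markers. In bulk RNA, fewer cells in S phase and less histone RNA per cell cannot be told apart.

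The order of the libraries was read from these medians against a list of 34 S phase genes and the short RNAs. The median of the 32 S phase genes present was 23.7, 7.96 and 8.74 FPKM in the Control libraries, 19.0, 6.28 and 7.14 under RSPO2, 19.0, 10.9 and 10.2 under BMP2 and 12.4, 6.05 and 4.93 under the combination. The first replicate was thus the highest of each arm in S phase genes, and BMP2+RSPO2 replicate 1 was at rank 4 of the 12 libraries. RSPO2 replicate 3 had rank 5 for histone genes and rank 2 for the short RNAs, but rank 9 for S phase genes. The part of poly(A) selection, of RNA quality and of cell cycle state in these levels was not tested.

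**Figure D2:**
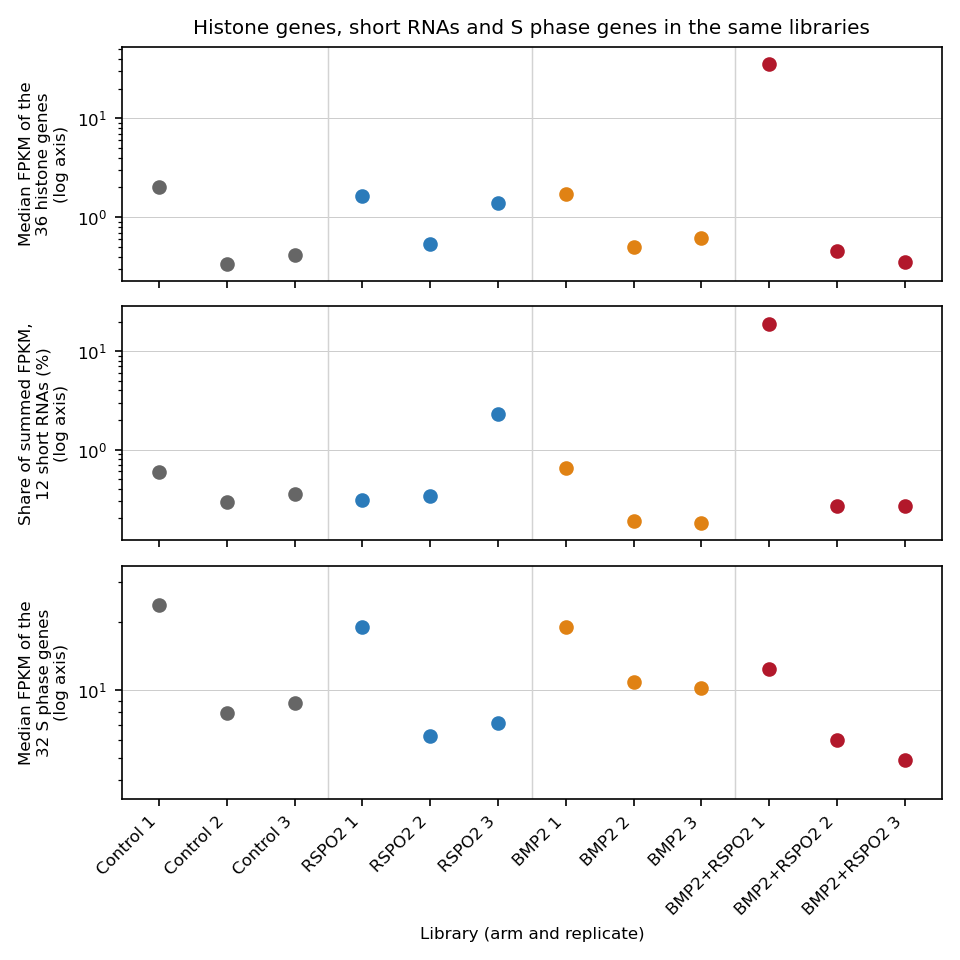
Median FPKM of the 36 histone genes (top), share of summed FPKM taken by the 12 short RNAs (middle, in %) and median FPKM of the 32 S phase genes (bottom) in each library, on log axes, coloured by arm. BMP2+RSPO2 replicate 1 is highest in the upper 2 panels, at 35.1 FPKM and 19.1%, and has rank 4 in the lower panel, at 12.4 FPKM, below the first replicates of the other arms.

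The excess in BMP2+RSPO2 replicate 1 ran through every histone type, but not through every gene. It was the highest of the 12 libraries for 30 of 36 genes (of all genes with a value, 16.2%), with 4 of 5 H1, 6 of 7 H2A, 7 of 10 H2B, 2 of 2 H3 and 11 of 12 H4 genes. Against the mean of replicates 2 and 3 of the same arm, a ratio could be formed for 29 genes, and its median was 129, with a range from 0.656 to 541. In 24 of the 29 genes it was above 10, against 7.18% of all genes with a ratio, and in 19 it was above 50. Another 4 genes were listed at 0 in replicates 2 and 3 and at 1.84 (Hist1h2ae), 7.50 (Hist1h3f), 12.0 (Hist1h2bl) and 35.9 FPKM (Hist1h2ak) in replicate 1. The median ratio was 177 for H1, 35.1 for H2A, 23.5 for H2B and 143 for H4 genes, and 199 for Hist1h3d, the H3 gene that had one. H4 genes took 39.6% of the summed histone FPKM in this library, against 7.24% and 7.91% in replicates 2 and 3. H1 genes took 18.7%, against 55.5% and 52.4%.

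The H4 genes encode the core histone with the least sequence variation. In the order of replicates 1, 2 and 3, Hist1h4d was measured at 5.5, 0.36 and 2.06 FPKM in the Control libraries, 2.11, 1.55 and 5.62 under RSPO2, 3.18, 0.8 and 0.69 under BMP2 and 254, 0.5 and 1.06 under the combination. Hist1h4c was measured at 4.02, 0.93 and 0.57 FPKM in the Control libraries, 2.15, 0.95 and 5.89 under RSPO2, 5.5, 1.52 and 2.1 under BMP2 and 138, 0.63 and 1.66 under the combination, and Hist1h4f at 2.66, 0.5 and 0.4 FPKM in the Control libraries, 1.58, 0.52 and 2.09 under RSPO2, 1.42, 0.51 and 0.32 under BMP2 and 122, 0.2 and 0.59 under the combination. Outside BMP2+RSPO2 replicate 1, none of these 3 genes exceeded 5.89 FPKM, and within Control and BMP2 the first replicate was the highest for each. Hist1h4i went another way. It was measured at 4.84, 1.25 and 2.09 FPKM in the Control libraries, 8.17, 2.46 and 1.29 under RSPO2, 4.3, 2.36 and 0.89 under BMP2 and 1.75, 1.11 and 1.03 under the combination, so that the first replicates of Control, RSPO2 and BMP2 were the highest of their arms, as for Hist1h4c in Control and BMP2, while BMP2+RSPO2 replicate 1 lay below all 3 of them.

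Linker histone H1 closes the nucleosome and compacts chromatin. Hist1h1e (H1.4) was measured at 8.11, 1.55 and 2.57 FPKM in the Control libraries, 4.83, 1.63 and 9.28 under RSPO2, 10.4, 0.91 and 0.77 under BMP2 and 198, 1.48 and 0.9 under the combination. Hist1h1b (H1.5) was measured at 4.66, 0.55 and 0.83 FPKM in the Control libraries, 2.76, 0.55 and 4.27 under RSPO2, 4.63, 0.51 and 1.54 under BMP2 and 116, 0.7 and 0.53 under the combination. Both genes were high in BMP2+RSPO2 replicate 1, at 167 and 188 times the mean of replicates 2 and 3, and in the other arms their highest values were in Control replicate 1, RSPO2 replicate 3 and BMP2 replicate 1. Hist1h1t, the H1 gene of the testis, did not exceed 0.18 FPKM, and Hist1h1a was at 10.9 FPKM in BMP2+RSPO2 replicate 1 and at 0.31 or less elsewhere.

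H2A and H2B pair as dimers on either face of the nucleosome. Of the H2A genes, Hist1h2ac was measured at 6.71, 1.24 and 1.44 FPKM in the Control libraries, 3.81, 1.93 and 5.22 under RSPO2, 7.86, 0.67 and 2.23 under BMP2 and 182, 1.38 and 1.74 under the combination, and Hist1h2ab at 6.26, 0.94 and 0.63 FPKM in the Control libraries, 5, 0.61 and 4.96 under RSPO2, 6.28, 1.4 and 2.49 under BMP2 and 170, 1.01 and 1.05 under the combination. Hist2h2ac, from the smaller cluster, was measured at 2.63, 3.7 and 4.3 FPKM in the Control libraries, 2.42, 3.47 and 4.72 under RSPO2, 3.6, 3.36 and 3.53 under BMP2 and 54.6, 3.64 and 6.03 under the combination, so that the 9 libraries of the other arms lay between 2.42 and 4.72. Of the H2B genes, Hist1h2ba, the symbol of a testis H2B, was measured at 13.5, 4.93 and 5.5 FPKM in the Control libraries, 9.46, 4.78 and 8.28 under RSPO2, 11.6, 4.56 and 5.53 under BMP2 and 212, 8.06 and 10.0 under the combination. Hist1h2bm was measured at 8.66, 3.47 and 4.16 FPKM in the Control libraries, 11.1, 4.25 and 7.87 under RSPO2, 10.5, 6.25 and 7.64 under BMP2 and 118, 9.7 and 13.6 under the combination, and Hist1h2bb at 3.56, 0 and 0.41 FPKM in the Control libraries, 0, 0 and 2.41 under RSPO2, 1.49, 0 and 0 under BMP2 and 29.5, 0 and 0.32 under the combination. Hist1h2ba and Hist1h2bm were above 3 FPKM in all 12 libraries, whereas Hist1h2bb was listed at 0 in 6 of them. The H3 genes encode the partner of H4. Hist1h3d was measured at 1.29, 0.28 and 0.47 FPKM in the Control libraries, 0.9, 0.18 and 0.72 under RSPO2, 0.64, 0.27 and 0.55 under BMP2 and 40.7, 0.25 and 0.16 under the combination, and Hist1h3f reached 7.50 in BMP2+RSPO2 replicate 1 and at most 0.85 elsewhere.

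Only 5 genes with a ratio had less than 5 times their mean of replicates 2 and 3 in BMP2+RSPO2 replicate 1. They were Hist2h2be (0.66), Hist3h2a (1.42), Hist1h4i (1.64), Hist1h1c (1.88) and Hist1h2be (2.25), of which Hist2h2be and Hist1h2be are named after their values were seen. Set against the ends of the transcript models, 4 of them belong to the 14 genes whose model runs on for more than 200 bases behind the stem-loop, and Hist2h2be has no stem-loop match. Of the 13 genes in the first class with a ratio, 9 were above 10, from Hist2h4 at 81.4 to Hist1h4j at 541. All 10 genes with a ratio whose model ends within 200 bases of the stem-loop were above 10, with Hist1h2bm at 10.2 and Hist2h2ac at 11.3 lowest. The classes overlap, and where the RNA measured here ends was not tested.

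Hist2h2be, an H2B gene of the smaller cluster, was measured at 1.24, 1.73 and 1.53 FPKM in the Control libraries, 2, 1.55 and 1.95 under RSPO2, 1.92, 1.6 and 1.97 under BMP2 and 0.86, 1.27 and 1.35 under the combination, and so within 0.86 to 2 FPKM throughout. Hist3h2a was measured at 3.34, 3.18 and 2.54 FPKM in the Control libraries, 4.21, 3.52 and 1.59 under RSPO2, 3.21, 2.18 and 2.42 under BMP2 and 2.74, 1.99 and 1.87 under the combination. Neither gene had its highest value in BMP2+RSPO2 replicate 1, and Hist2h2be had its lowest there.

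**Figure D3:**
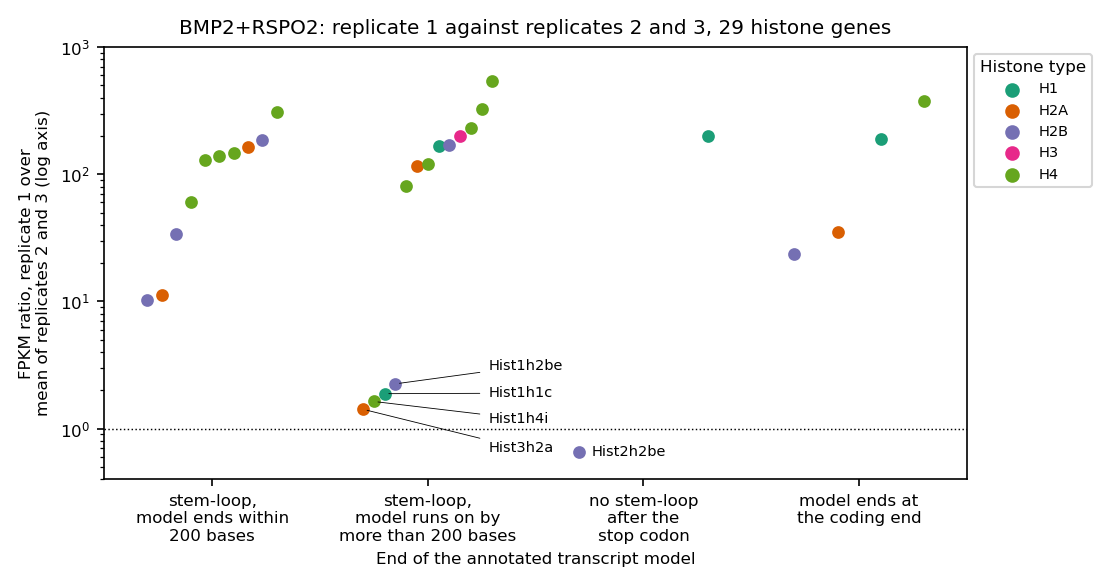
FPKM of BMP2+RSPO2 replicate 1 divided by the mean of replicates 2 and 3 of that arm (log axis), for the 29 histone genes with a ratio, by the end of the annotated transcript model and coloured by histone type. The dotted line marks a ratio of 1. All 10 genes whose model ends close behind the stem-loop lie above 10, whereas Hist1h1c, Hist1h2be, Hist1h4i and Hist3h2a, among the longer models, and Hist2h2be lie below 5.

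Hist1h1c was the histone gene that was called between arms when all libraries were fitted by their arm. It encodes H1.2, a linker histone of dividing and resting cells. Its values were 15.4, 9.88 and 9.07 FPKM in the Control libraries, 12.7, 10.6 and 12.4 under RSPO2, 24.1, 17.8 and 17.1 under BMP2 and 83.5, 40.8 and 47.9 under the combination, so that all 3 libraries with both proteins lay above all others, those with BMP2 came next, and Control and RSPO2 overlapped. The Control mean was 11.5 ± 3.47 FPKM and the RSPO2 mean 11.9 ± 1.11, against 19.7 ± 3.85 under BMP2 and 57.4 ± 22.9 under the combination (mean ± SD, n = 3). The ratio of means was 5.01 between both proteins and Control, and 4.68 from replicates 2 and 3 alone. Hist1h1c took 52.6% and 50.8% of the summed histone FPKM in replicates 2 and 3 of BMP2+RSPO2, 3.82% in replicate 1, the lowest share of the 12 libraries, and 13.5% to 34.9% in the other arms.

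The arms were compared with limma on log2(FPKM + 1) for the 11548 genes that reached 1 FPKM in at least 3 libraries, with Benjamini-Hochberg adjustment over these genes and a threshold of 0.05. Of the 36 histone genes, 21 passed this filter and 15 could not be tested. Of the 21, 1 would not have passed without BMP2+RSPO2 replicate 1, and 7 not without the first replicates, so the counts below do not speak for all 36. Between both proteins and Control, 1 of the 21 was higher and 0 lower, against 3.65% of all genes tested that were higher and 23% called in either direction (421 higher and 2235 lower; after quantile normalization 800 and 826, after median-of-ratios scaling 834 and 859). It was Hist1h1c, with a log2 change of 2.19 (SE 0.27, adjusted p = 0.000558), and of 1.89 (adjusted p = 0.000528) without BMP2+RSPO2 replicate 1. The median log2 change of the 21 genes was 1.44, against -0.26 over all genes tested, a shift that both scalings brought to -0.02 and -0.03 while Hist1h1c stayed the 1 histone gene called. Without BMP2+RSPO2 replicate 1, while Control kept its own replicate 1, the median of the 21 was -0.45, against -0.22 over all genes tested. From replicates 2 and 3 of each arm alone it was 0.05, against -0.18. Leaving out BMP2+RSPO2 replicate 2 instead raised the count to 3 (2.57% of all genes tested were then higher), with Hist1h2bm (adjusted p = 0.0313) and Hist2h2ac (adjusted p = 0.0482) besides Hist1h1c.

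Hist1h2bm lay above Control in all 3 libraries with both proteins, at 9.70 to 118 against 3.47 to 8.66 FPKM. Its log2 change of 2.13 (SE 0.75, adjusted p = 0.0649) did not pass the threshold with all libraries, nor without BMP2+RSPO2 replicate 1 (1.04, adjusted p = 0.0913). From replicates 2 and 3 of each arm alone the change was 1.38 (SE 0.27, adjusted p = 0.00954). In replicates 2 and 3, with 2 libraries per arm, 4 of the 21 tested histone genes lay above Control without overlap (Hist1h1c, Hist1h2ab, Hist1h2ba and Hist1h2bm) and 4 below (Hist1h1e, Hist1h4i, Hist2h2be and Hist3h2a). Over all genes tested, 17.8% lay above and 54.3% below.

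Hist1h1c was also higher with both proteins than with BMP2 alone. The ratio of means between BMP2+RSPO2 and BMP2 was 2.92, or 2.54 from replicates 2 and 3, and the groups did not overlap. Of the 21 tested genes, Hist1h1c alone was called, higher, against 0.641% of all genes tested that were higher and 4.38% called in either direction (74 higher and 432 lower; 135 and 126 after quantile normalization). Its log2 change was 1.45 (SE 0.27, adjusted p = 0.0208). It was 1.15 (adjusted p = 0.0210) without BMP2+RSPO2 replicate 1, and missed the threshold without BMP2 replicate 2 (1.38, adjusted p = 0.0859) or replicate 3 (1.36, adjusted p = 0.0845). Hist2h2be lay below BMP2 in all 3 libraries, at 0.86 to 1.35 against 1.60 to 1.97 FPKM, with a log2 change of -0.39 (SE 0.14, adjusted p = 0.122), or -0.29 (adjusted p = 0.213) without BMP2+RSPO2 replicate 1. In replicates 2 and 3, Hist1h1c, Hist1h2ba, Hist1h2bm and Hist2h2ac lay above BMP2 without overlap and Hist1h2ab, Hist2h2be and Hist3h2a below, against 20.5% above and 46.7% below over all genes tested. The median log2 change of the 21 genes was 1.297 against -0.19 over all genes. It was -0.41 against -0.14 without BMP2+RSPO2 replicate 1, while BMP2 kept its own replicate 1, and -0.03 against -0.11 from replicates 2 and 3 alone.

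With BMP2 alone, Hist1h1c was at 17.1 to 24.1 FPKM against 9.07 to 15.4 in Control, without overlap, and the ratio of means was 1.72. The log2 change of 0.75 (SE 0.27, adjusted p = 0.300) did not pass the threshold with all libraries, and did from replicates 2 and 3 alone (0.82, adjusted p = 0.00884). By limma, 0 of the 21 tested histone genes were called, against 1.52% of all genes tested, and Hist1h1c was the 1 gene with an unadjusted p under 0.05. The arms share a common estimate of the spread, which includes BMP2+RSPO2 replicate 1, and the SE was 1.41 for Hist1h1b and 1.58 for Hist1h4d. Without that library, 0 of 21 were called, against 403 of the 11548 genes tested. The lowest adjusted p among the 21 was then 0.0784. In replicates 2 and 3, Hist1h1c, Hist1h2ab, Hist1h2bm and Hist1h4c lay above Control without overlap and Hist1h1e, Hist2h2ac and Hist3h2a below, against 20% above and 39.2% below over all genes tested.

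With RSPO2 alone, no histone gene was called by limma, 0 of 21 against 0.0779% of all genes tested, and 0 had an unadjusted p under 0.05. Here too the common estimate of the spread includes BMP2+RSPO2 replicate 1. The SE was 1.41 for Hist1h1b, 1.53 for Hist1h1e and 1.58 for Hist1h4d, so only large changes of such genes could have been called. Without that library, 0 of 21 were called, against 21 of the 11548 genes tested. With all libraries, Hist1h1c had a log2 change of 0.08 (SE 0.27, adjusted p = 0.9997), and its sign turned without Control replicate 2 or 3. In replicates 2 and 3, 8 of the 21 genes lay above Control without overlap and 0 below, against 23.1% and 17.5% of all genes tested, among them Hist1h1c, Hist1h2ac, Hist1h2bm and Hist1h4a. From these replicates alone the median log2 change of the 21 genes was 0.53, against 0.01 over all genes tested. Of the 21, 19 had a change above 0 and 0 were called, against 195 of the 11548 genes tested. RSPO2 replicate 3 was the library with the second highest share of short RNAs.

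The interaction asks whether RSPO2 had another effect with BMP2 than without it. For Hist1h1c the difference of the log2 effects was 1.37 (SE 0.38, adjusted p = 0.176), and from replicates 2 and 3 alone 1.04 (adjusted p = 0.0131). No histone gene was called by limma with all libraries, 0 of 21 against 0.294% of all genes tested, while 2 had an unadjusted p under 0.05, Hist1h1c and Hist2h2be, the latter at -0.58 (SE 0.20, adjusted p = 0.283), or -0.47 (adjusted p = 0.244) without BMP2+RSPO2 replicate 1. Without that library, 0 of 21 were called, against 187 of the 11548 genes tested. The median of the 21 genes was 1.20, against -0.21 over all genes tested, and without that library -0.51, against -0.16.

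**Figure D4:**
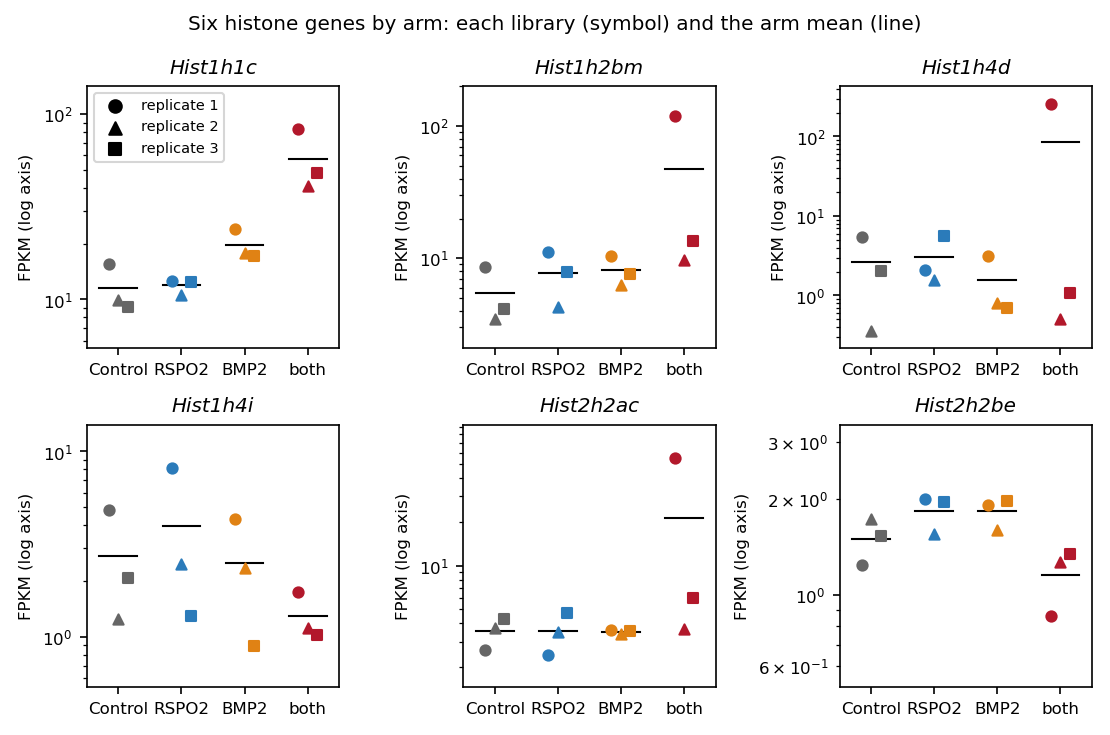
FPKM of 6 histone genes (log axes, scaled per gene) in the 4 arms, where each symbol is a library, its shape the replicate number, and the line the arm mean. Hist1h1c lies higher in BMP2+RSPO2 than in any other arm, Hist1h4d and Hist2h2ac stand out in BMP2+RSPO2 replicate 1, and Hist1h4i is highest in the first replicates of Control, RSPO2 and BMP2.

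In Control and BMP2 too, the first replicate held more histone RNA than replicates 2 and 3. Replicate 1 was above both others in 29 of 36 genes in Control, 14 under RSPO2, 29 under BMP2 and 32 under the combination, against 40.1%, 33.8%, 41.6% and 30.3% of all genes with a value. With RSPO2, replicate 3 was the highest in 16 of 36, against 26.2% of all genes. What the numbers stand for (a day, a plating or a library preparation) is not given in the sources used here.

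In a limma fit with the arm as covariate, 12 of the 21 tested histone genes were higher in replicate 1 and 0 lower, beside 15.2% of all genes tested that were higher and 25% called in either direction (1758 higher and 1132 lower; 1423 and 1901 after quantile normalization, which left the 12 and 0 as they were). The split by replicate number was chosen with earlier results of these data known. Since 7 of the 21 passed the filter only with the help of first replicates, and 4 of these (Hist1h1b, Hist1h2bj, Hist1h4a and Hist1h4m) are among the 12, the count is partly fixed by the filter and is not read against these shares. The other 8 called genes are among the 14 that pass without any first replicate. The smallest p-values were those of Hist1h4i, with a log2 difference of 1.08 (SE 0.22, adjusted p = 0.00779), Hist1h1c, with 0.53 (SE 0.11, adjusted p = 0.0087), and Hist1h2bm, with 1.41 (SE 0.38, adjusted p = 0.0242). Hist1h2ba differed by 1.80 (SE 0.51, adjusted p = 0.0302), Hist1h2bj by 1.60 (SE 0.45, adjusted p = 0.0303) and Hist1h2ab by 2.68 (SE 0.76, adjusted p = 0.0307). Without BMP2+RSPO2 replicate 1, these 6 differences lay between 0.41 and 1.44 and stayed called, with adjusted p-values of 0.00261 to 0.0184. Hist1h2bj was measured at 1.38, 0.8 and 0.42 FPKM in the Control libraries, 2.03, 0.57 and 0.14 under RSPO2, 2.08, 1.01 and 0.72 under BMP2 and 25.7, 0.76 and 0.77 under the combination. Without BMP2+RSPO2 replicate 1 the count was 13, with 23.7% of all genes tested higher. The filter was kept from all libraries, so this count too is partly fixed by it and is not read against that share. Among the 13 was Hist1h2ak (adjusted p = 0.00379), which passed the filter only with the library left out. In the same fit the median log2 difference of the 21 genes fell from 1.91 to 0.84, against 0.02 over all genes tested with all libraries. The count rose to 15 without RSPO2 replicate 1 and to 14 without RSPO2 replicate 3. It fell to 3 without Control replicate 1, to 4 without BMP2+RSPO2 replicate 2 or 3, to 5 without Control replicate 2 or 3 or BMP2 replicate 2, to 6 without RSPO2 replicate 2, and to 8 without BMP2 replicate 1 or 3.

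Some genes of the machinery that makes histone mRNA were higher in the first replicates. Slbp, which encodes the stem-loop binding protein, was measured at 19.2, 6.97 and 8.37 FPKM in the Control libraries, 18.6, 7.49 and 6.9 under RSPO2, 15.2, 9.37 and 8.54 under BMP2 and 7.62, 4.53 and 5.02 under the combination, and was higher in replicate 1 by 0.94 (SE 0.12, adjusted p = 0.000506) on the log2 scale. Of the 21 tested genes of a list for histone transcription and mRNA processing, 9 were higher in replicate 1, 0 lower and 12 not called, with a median of 0.10 against 0.02 over all genes, of which 15.2% were higher. Without BMP2+RSPO2 replicate 1, 10 were higher, against 23.7% of all genes tested. They included Casp8ap2 (FLASH), with 0.73 (SE 0.06, adjusted p = 9.26e-05), Npat, with 0.50 (SE 0.09, adjusted p = 0.00421), Eri1, a nuclease of the stem-loop, with 0.44 (SE 0.10, adjusted p = 0.0105), and Lsm11, a U7 subunit, with 0.33 (SE 0.07, adjusted p = 0.00898). Its partner Lsm10 was at -0.18 (SE 0.13, adjusted p = 0.323), and Zfp473 stayed below 1 FPKM.

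All 32 tested genes of the S phase list were higher in replicate 1, beside 15.2% of all genes tested. Their median log2 difference was 1.23, against 0.02 over all genes tested. Without BMP2+RSPO2 replicate 1, 31 were higher, beside 23.7% of all genes tested. Rrm2, a subunit of ribonucleotide reductase, was measured at 45.9, 11.5 and 12.1 FPKM in the Control libraries, 46.1, 9.29 and 8.9 under RSPO2, 47.2, 18.2 and 19.3 under BMP2 and 36.5, 9.6 and 9.99 under the combination, with a difference of 1.79 (SE 0.12, adjusted p = 4.85e-05). Ccne2, a cyclin of S phase entry, differed by 1.75 (SE 0.16, adjusted p = 0.000123), Mcm2, of the replicative helicase, by 1.16 (SE 0.11, adjusted p = 0.000135) and Pcna, the sliding clamp, by 1.14 (SE 0.15, adjusted p = 0.000738). Of 18 histone chaperones tested, 9 were higher in replicate 1 and 0 lower (14 and 0 without BMP2+RSPO2 replicate 1), against 15.2% higher and 23.7% without that library over all genes tested. They included Asf1b, with 1.71 (SE 0.18, adjusted p = 0.000232), and Chaf1b, with 1.34 (SE 0.11, adjusted p = 7.64e-05), which hand new histones to replicated DNA.

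Between both proteins and Control, fewer genes of these lists were called. In all, 4 of the 21 processing genes were lower with both proteins and 0 higher (Coil, Cpsf3, Lsm10 and Ncbp2), with a median log2 change of -0.26 against -0.26 over all genes, of which 19.4% were lower. Without BMP2+RSPO2 replicate 1, 3 were lower, against 2148 of the 11548 genes tested. After either scaling, 1 of the 21 was called lower, against 826 of all genes tested after quantile normalization and 859 after median-of-ratios scaling. Slbp was at -0.80 (SE 0.42, adjusted p = 0.183) and was not called. Of 32 S phase genes, 0 were called by limma, with or without that library, and 1 had a log2 change above 0, with a median of -0.55 (-0.87 without that library). This fit leaves the difference between replicate numbers in the spread, and without that library Control still kept its own replicate 1. In replicates 2 and 3 the median of the S phase genes was 7.96 and 8.74 FPKM in Control and 6.05 and 4.93 with both proteins. In BMP2+RSPO2 replicate 1 the processing genes had a median ratio of 1.06 to the mean of replicates 2 and 3, the S phase genes of 2.31 and the 7 short RNAs with a ratio of 140.

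A list of replication-independent histones and other variants, most of which give polyadenylated mRNA, had a median ratio of 1.07 between BMP2+RSPO2 replicate 1 and the mean of replicates 2 and 3, over the 9 that had one. Their summed FPKM in that library, 331, was the lowest of the 12, against 342 to 758 in the others. This rank holds for unscaled FPKM only: the divisor of the median-of-ratios scaling was 0.827 there and 0.896 to 1.12 in the others. H1f0, the linker histone of resting cells, whose gene also lacks introns, was measured at 247, 180 and 186 FPKM in the Control libraries, 266, 192 and 185 under RSPO2, 229, 173 and 174 under BMP2 and 135, 165 and 159 under the combination, and H2afz (H2A.Z) at 228, 109 and 102 FPKM in the Control libraries, 240, 103 and 69.4 under RSPO2, 230, 138 and 133 under BMP2 and 85.3, 74.0 and 82.3 under the combination. The summed FPKM of the replication-dependent genes was 6.60 times that of these variants in BMP2+RSPO2 replicate 1, and 0.0845 to 0.273 times in the other libraries. Against Control, 3 of the 9 tested variants were lower with both proteins and 0 higher, with and without BMP2+RSPO2 replicate 1, beside 19.4% of all genes tested that were lower: H3f3b (H3.3), with -0.95 (SE 0.18, adjusted p = 0.00477), H2afv, with -1.22 (SE 0.20, adjusted p = 0.00255), and H2afj, with -0.63 (SE 0.12, adjusted p = 0.0042). After quantile normalization 2 of them were called lower, against 826 of the 11548 genes tested, and after median-of-ratios scaling 3, against 859. Unscaled and without BMP2+RSPO2 replicate 1, 2148 of all genes tested were lower. H1f0 was at -0.41 (SE 0.19, adjusted p = 0.135) and H2afz at -0.76 (SE 0.43, adjusted p = 0.222), and neither was called. Of Hist1h1c and H1f0, the linker histone genes with the highest levels, only Hist1h1c was thus called with both proteins. The -0.41 of H1f0 stands beside a median of -0.26 over all genes tested. In the first replicates, 5 of the 9 were higher, against 15.2% of all genes tested, and 8 without BMP2+RSPO2 replicate 1, against 23.7%. Among the 5 were H2afx, which encodes the H2A variant marked at DNA breaks, with 1.03 (SE 0.09, adjusted p = 0.00011), and H2afz, with 0.87 (SE 0.19, adjusted p = 0.00959).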

How the data were processed

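Poly(A)-selected, strand-specific mRNA libraries of 12 cultures were measured. The authors deposited 1 FPKM value per gene and library with 2 decimals, per the file headers, and the deposited p-value and q-value columns name no comparison and were not used. The submitters' processing notes list cutadapt 1.10, FastQC 0.10.1, HISAT2 2.0, StringTie 1.3.4 and edgeR (version and role not given in the sources used here), with GRCm38 and mm10. Gene identifiers are of the C57BL/6NJ annotation, and how reads of near-identical genes were assigned is not stated. Without counts the depth of each library is unknown, and no interval from depth can be given; a value listed at 0 may be a failed estimate.

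A gene had to reach 1 FPKM in 3 or more of the libraries (11548 did) to enter the test, which was limma 3.58.1 (R 4.3.3) on log2(FPKM + 1), with the 4 arms in 1 fit, a trend in the variance prior, two-sided tests, and Benjamini-Hochberg adjustment within each comparison at 0.05. Log2 changes on this scale understate the change of low genes. Replicate 1 was set against replicates 2 and 3 with the arm as covariate. The fit was tested on simulated data. The alternatives were a pseudocount of 0.1, no filter, quantile normalization, median-of-ratios scaling, each library left out, a replicate block, and replicates 2 and 3 alone. The members and gene lists were chosen with earlier results of these data known. Values were given for the 3 members of each histone type with the highest mean, the 6 with the highest median, in each comparison the called members of lowest p (6 at most), and fixed genes of the lists. Transcript models were matched by symbol to GENCODE M21, and promoters to RefSeq (GRCm38.p6). Python 3.11.15 was used for the sequence searches.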

Additional observations from a re-analysis of the deposited data

How the results depend on the processing

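The comparison of both proteins with Control kept Hist1h1c called in all 19 alternatives, with log2 changes of 1.89 to 2.49. The number of histone genes called was 2 with the replicate block (Hist1h1c and Hist1h2bm, the latter with adjusted p = 0.0142) and 2 from replicates 2 and 3 alone (again these). Of the 11548 genes tested, 620 and 856 were higher in these fits, against 421 in the main fit. The number was 1 to 3 when each library was left out. For BMP2 against Control the number rose from 0 to 1 with the replicate block (Hist1h1c, adjusted p = 0.0449) and from replicates 2 and 3 alone. All genes called rose there from 175 to 329 and 963. For the interaction the number likewise rose to 1 (adjusted p = 0.0409 with the block) and 1, and all genes called from 34 to 91 and 1109. For BMP2+RSPO2 against BMP2 it was 0 to 1 with each library left out. For replicate 1 against replicates 2 and 3 it was 2 of 36 without the filter on low values, where 1442 of 21829 genes were higher. With each library left out it was 3 to 15, against 12. An alternative chosen after seeing the data left out BMP2+RSPO2 replicate 1 and RSPO2 replicate 3, the libraries richest in RNA polymerase III RNAs. It gave 18 of 21 for replicate 1 against replicates 2 and 3, with 2647 of the 11548 genes tested higher. Like the 12, this count is partly fixed by the filter and is not read against that share. For both proteins, the medians of the tested members were then -0.45 against Control, -0.41 against BMP2 and -0.47 for the interaction. With all libraries they were 1.44, 1.297 and 1.20. Leaving out each library moved these medians between -0.45 and 2.40, -0.41 and 2.22, and -0.51 and 1.95, and replicates 2 and 3 alone gave 0.05, -0.03 and -0.44. Hist1h1c in RSPO2 against Control ranged from -0.056 to 0.30 with each library left out. The cause of these shifts was not tested. No block could be fitted for the comparison of replicate numbers.

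Same-numbered libraries of different arms deviated together in 16 of 18 pairs with a correlation above 0.1, from -0.12 to 0.63, and 9 of 12 libraries correlated best with their own number, which is a hint of shared variation from the data. Pairs of different numbers ranged from -0.45 to 0.35, so the mark of 0.1 alone does not set same-numbered pairs apart. Pairs of number 1 with number 2 or 3 were all below 0, except RSPO2 replicate 3 with BMP2+RSPO2 replicate 1 (0.15). The other pairs of different numbers above 0.1 joined numbers 2 and 3. Same-numbered pairs of number 1 lay between 0.16 and 0.63, and those of numbers 2 and 3 between -0.12 and 0.41. As 2 same-numbered pairs lay at or below 0.1 and the labels name no shared batch, the fit without the block was kept as the main one. The replicate block changed no other count of called histone genes. The labels call the replicates independent, so p-values cover the spread between 3 cultures per arm, and the depth of single low values is unknown.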
